A study of Mus musculus with 6 samples.

Results

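Fibronectin (Fn1), versican (Vcan), thrombospondin 1 (Thbs1), the A chain of coagulation factor XIII (F13a1) and tissue transglutaminase (Tgm2) were followed in macrophages from mouse liver. They are proteins of the provisional matrix, and were taken by gene name from a table of 14918 genes, in which all 5 names had 1 row each. The libraries came from the livers of C57BL/6 mice fed a high fat diet or a normal diet for 18 weeks from an age of about 6 weeks, with 3 mice in each group and 1 poly(A)-selected library per mouse. The labels name no transgene, deletion or drug in either group, and the sources used here do not say how the macrophages were taken from the liver. The diet difference measured in these same libraries played a part in choosing the 5 genes, so their diet values below are a description and support nothing further.

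A provisional matrix is the temporary scaffold that forms where plasma leaks into injured or inflamed tissue. Fibrin and fibronectin are laid down together, factor XIII and tissue transglutaminase join their chains by covalent bonds, and versican and thrombospondin 1 alter how cells attach to and move through it. Monocytes and macrophages secrete several of these proteins, and in liver the fibronectin of plasma is made by hepatocytes.

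Some coding sequence shows what sets the members apart by role, and is given 5′ to 3′ on the coding strand from GENCODE transcripts of GRCm38. In Fn1 and Thbs1 the capitals mark the codons of the Arg-Gly-Asp (RGD) tripeptide, which in fibronectin is bound by integrins. The Fn1 stretch lies in exon 30 of 46 (chr1:71606728-71606772, minus strand), and the Thbs1 stretch runs from exon 17 into exon 18 of 22 (chr2:118122671-118122908, plus strand, the intron between them left out). The same Fn1 transcript holds another RGD tripeptide in exon 40 (chr1:71597425-71597469), which is not shown.
Fn1: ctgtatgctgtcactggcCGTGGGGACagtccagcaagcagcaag
Thbs1: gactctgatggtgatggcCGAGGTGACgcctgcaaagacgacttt
F13a1 and Tgm2 belong to the transglutaminase family, and in them the capitals mark the codons at the catalytic cysteine, which forms the bond with a glutamine of the substrate. The F13a1 stretch lies in exon 7 of 15 (chr13:36946450-36946497, minus strand) and the Tgm2 stretch in exon 6 of 13 (chr2:158131338-158131385, minus strand).
F13a1: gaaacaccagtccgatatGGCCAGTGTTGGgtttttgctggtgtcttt
Tgm2: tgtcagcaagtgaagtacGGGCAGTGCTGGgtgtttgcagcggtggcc
Between these 2 stretches 26 of 48 bases were identical (54.2%), and 10 of the 12 in capitals.

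All libraries held the transcripts of macrophages at high levels. Total counts lay between 17470439 and 23610956. Clec4f, a lectin specific to Kupffer cells, which are liver-resident macrophages, and Csf1r, the receptor for macrophage colony-stimulating factor, were between 5835 and 10382 CPM and between 3709 and 5786 CPM. CPM are read counts scaled to a common library size after TMM normalisation. These are bulk libraries, in which fewer cells of a type and less RNA per cell cannot be told apart.

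Fn1, the fibronectin gene (ENSMUSG00000026193, chr1:71585520-71653200, minus strand, mm10), stood at 845, 1156 and 890 CPM in high fat diet replicates 1 to 3. In normal diet replicates 1 to 3 it stood at 352, 237 and 246 CPM. Every high fat diet library lay above every normal diet library, the lowest of the former at 2.40 times the highest of the latter. The means were 964 ± 168 and 278 ± 64.0 CPM (SD, n = 3), a log2 fold change of 1.79 ± 0.20 (SE) or 3.47-fold.

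Vcan, which encodes the large chondroitin sulfate proteoglycan that binds hyaluronan (ENSMUSG00000021614, chr13:89655312-89742509, minus strand), was far less abundant. It had 335, 265 and 729 reads on the high fat diet, or 16.0, 15.0 and 30.7 CPM in replicates 1 to 3. On the normal diet it had 74, 17 and 72 reads, or 3.73, 0.895 and 3.58 CPM. The groups did not overlap. High fat diet replicate 3 stood apart from the other libraries of its diet by being high and normal diet replicate 2 by being low. The exact 95% Poisson intervals were 9.90 to 27.2 for the 17 reads and 56.3 to 90.7 for the 72 reads, which do not overlap and cover counting error only. The log2 fold change was 2.90 ± 0.56 (SE), 7.49-fold, the largest of the 5 genes with all libraries. The authors' deposited table gave 2.09 for Vcan. It was smaller in size there for the other members too, at 1.66 for Fn1, 1.44 for F13a1, 0.83 for Thbs1 and -0.81 for Tgm2.

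Thbs1, an adhesive glycoprotein that platelets release and that can activate latent TGF beta (ENSMUSG00000040152, chr2:118111876-118127133, plus strand), stood at 738, 900 and 1264 CPM in high fat diet replicates 1 to 3. In normal diet replicates 1 to 3 it stood at 636, 172 and 577 CPM. The groups were separate by a narrow margin, with the lowest high fat diet library at 1.16 times the highest normal diet library. Normal diet replicate 2 lay well below all other libraries. The log2 fold change of 1.07 ± 0.49 (SE) rested in part on it and was 0.66 ± 0.24 without it.

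F13a1 encodes the catalytic subunit of factor XIII, the transglutaminase that crosslinks fibrin and couples fibronectin to it (ENSMUSG00000039109, chr13:36867178-37050244, minus strand). It stood at 91.8, 93.6 and 111 CPM in high fat diet replicates 1 to 3 and at 41.7, 33.0 and 27.4 CPM in normal diet replicates 1 to 3. The groups were far apart and the libraries within each close together, with an SD of 10.6 CPM around 98.8 and of 7.21 CPM around 34.0 (n = 3). The log2 fold change was 1.54 ± 0.16 (SE), 2.90-fold.

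Tgm2, the tissue transglutaminase, which acts inside cells and at the cell surface as well as in the matrix (ENSMUSG00000037820, chr2:158116402-158146436, minus strand), went the other way. It stood at 608, 677 and 728 CPM in high fat diet replicates 1 to 3 and at 1492, 870 and 1294 CPM in normal diet replicates 1 to 3. All high fat diet libraries lay below all normal diet libraries, with normal diet replicate 2 nearest to them at 1.19 times the highest. The log2 fold change was -0.86 ± 0.20 (SE), 1.82-fold lower on the high fat diet.

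**Figure D1:**
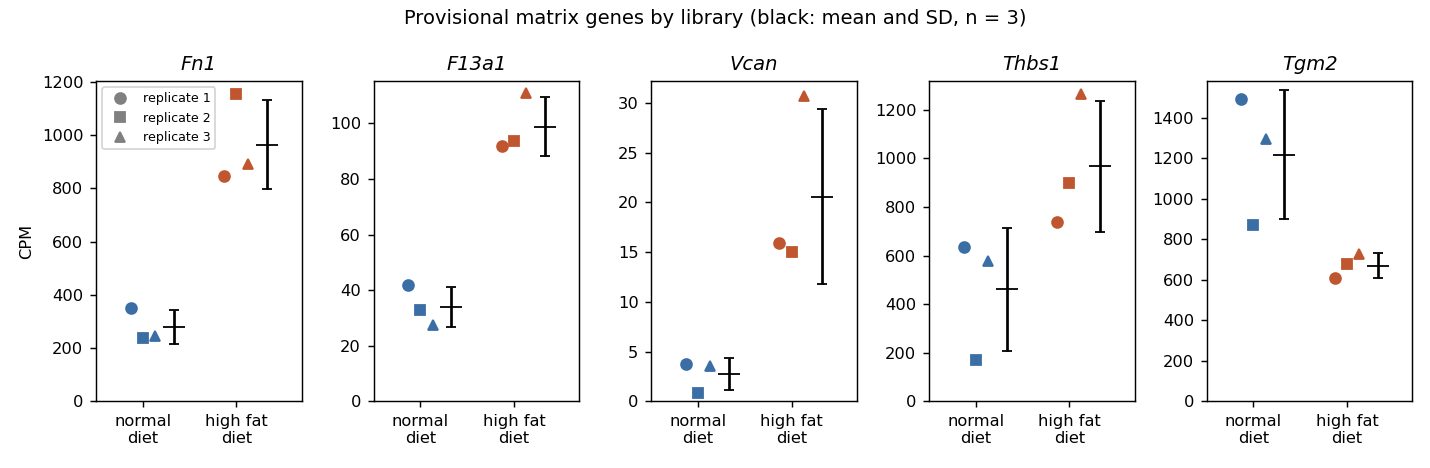
CPM of the 5 genes (vertical axes, each from 0) in 3 normal diet and 3 high fat diet libraries, with the mean and SD of each diet in black. Fn1, F13a1, Vcan and Thbs1 were higher on the high fat diet in every library and Tgm2 was lower, with Thbs1 at 172 CPM in normal diet replicate 2.

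The 2 crosslinking enzymes thus differed in direction within the same libraries. Per length, F13a1 transcript was 0.0259, 0.0352 and 0.0197 times the level of Tgm2 in normal diet replicates 1 to 3 and 0.140, 0.128 and 0.141 times in high fat diet replicates 1 to 3. The ratio is taken within a library on the deposited FPKM (reads scaled to gene model length and library size), so a scaling factor of the library has no part in it. Its means were 0.0269 ± 0.00782 and 0.137 ± 0.00726 (SD, n = 3), and the diets did not overlap. Tgm1, the transglutaminase of the epidermis and the other family member analysed, ranged from 21.2 to 24.97 CPM in normal diet libraries and from 20.2 to 27.4 CPM in high fat diet libraries, with overlap.

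The edgeR fit covered 14361 genes, of which 91 (0.634%) had an adjusted p under 0.05. The high fat diet was the higher group for 64 of these (0.446%) and the lower group for 27 (0.188%). Of the 5 members, all of which entered the fit, Fn1 and F13a1 were among the 64 (adjusted p = 0.0351 for each). Vcan, Tgm2 and Thbs1 were not (edgeR adjusted p = 0.0800, 0.100 and 0.309). Groups without overlap were seen in 25.3% of all genes tested (14.5% higher and 10.8% lower) and in 5 of 5 members. The members were chosen on this contrast, so nothing is read from these counts. DESeq2 called 8.08% of genes (4.96% higher, 3.12% lower), and edgeR without normal diet replicate 2 called 9.44% (3.54% higher, 5.9% lower). In both, Fn1, F13a1, Vcan and Tgm2 were called and Thbs1 was not. The authors' deposited table, in which 7.98% of genes had an adjusted p under 0.05, split the 5 the same way. Limma voom called 0.564% of genes (0.383% higher), with Fn1 and F13a1 among them. Of the fits that left out another single library, the one without normal diet replicate 3 called F13a1 alone (adjusted p = 0.0362), and the other 4 called none of the 5 at an edgeR adjusted p of 0.05.

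**Figure D2:**
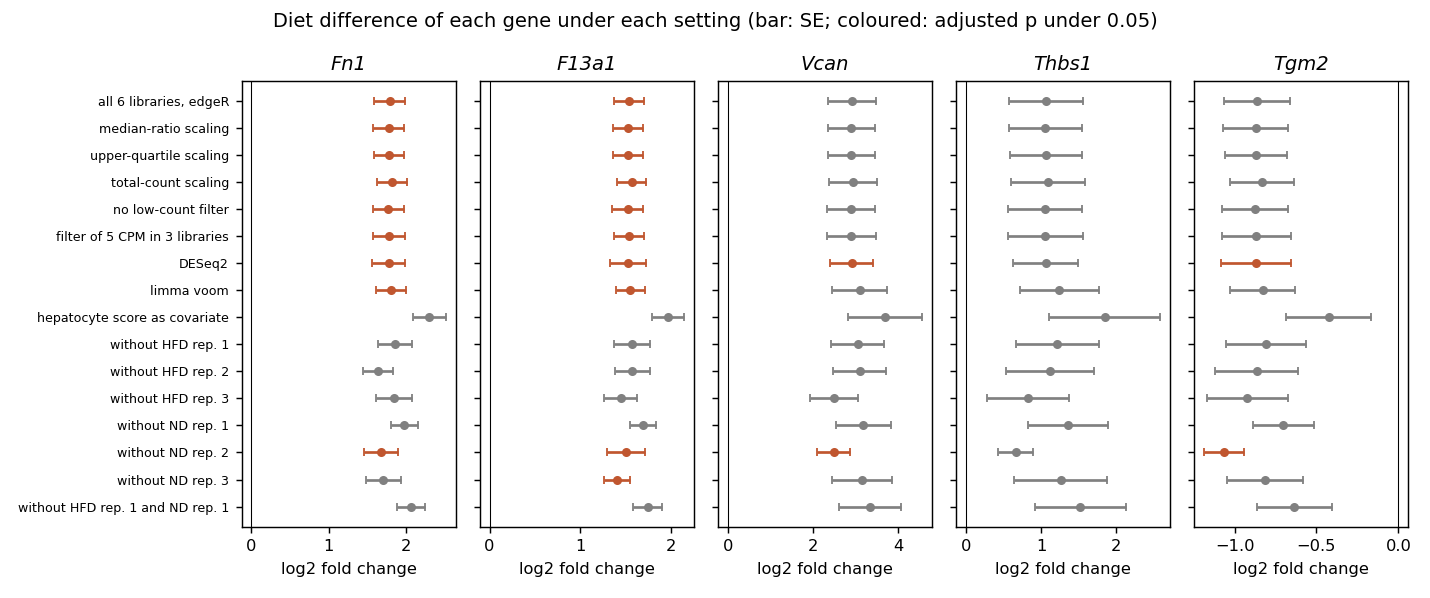
Log2 fold change of each gene (horizontal axes, high fat diet minus normal diet; bars are SE) with all 6 libraries in edgeR and under 15 alternatives (rows), coloured where the adjusted p was under 0.05. The sign of each gene was the same in every row; Thbs1 lay nearest to 0 without normal diet replicate 2 and Tgm2 with the hepatocyte score as a covariate.

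Compared per length, Tgm2 was the most abundant of the 5 on the normal diet, at 335 ± 84.9 FPKM. It was followed by Thbs1 at 78.0 ± 42.4, Fn1 at 33.0 ± 7.06, F13a1 at 8.68 ± 1.69 and Vcan at 0.218 ± 0.127 FPKM (SD, n = 3). Each neighbouring pair was in this order in all 3 libraries, but the ranges of Thbs1 and Fn1 overlapped. On the high fat diet the first 3 lay close together, at 188 ± 16.6 FPKM for Tgm2, 167 ± 46.1 for Thbs1 and 117 ± 20.6 for Fn1. Their neighbouring ranges overlapped, and Thbs1 exceeded Tgm2 in replicate 3. F13a1 followed at 25.7 ± 2.69 and Vcan at 1.67 ± 0.708 FPKM. The FPKM of Vcan depends on a gene model of 12427 bases, the length of its longest annotated transcript, while its 8 coding transcripts in GENCODE go down to 294 bases, and the table does not separate them.

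**Figure D3:**
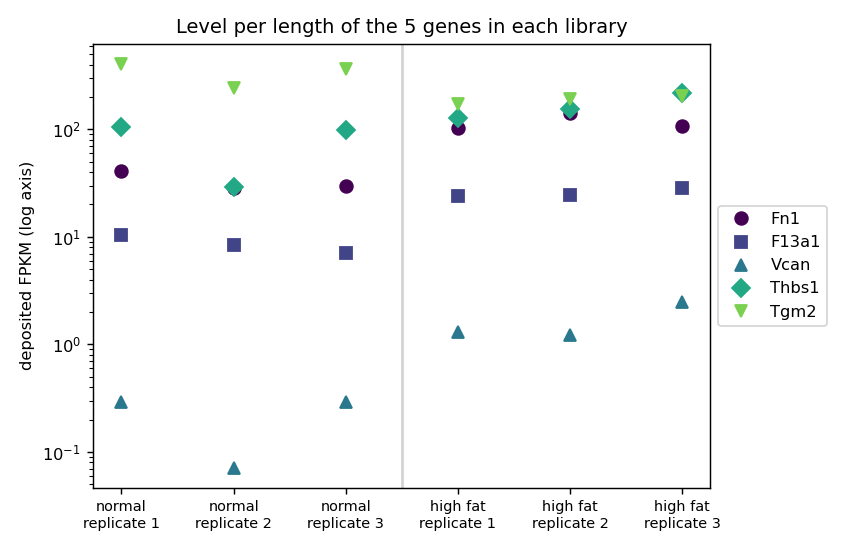
Deposited FPKM of the 5 genes (vertical log axis) in each of the 6 libraries (horizontal axis). Tgm2 was highest in 5 libraries and Vcan lowest in all 6, and the gap between Tgm2 and Fn1 was smaller on the high fat diet.

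The 5 genes differed in how much libraries of the same diet varied. On the normal diet the coefficient of variation of CPM was 58.4% for Vcan and 54.7% for Thbs1, against 26.1% for Tgm2, 23.0% for Fn1 and 21.2% for F13a1. The median over all tested genes was 15.0%. On the high fat diet Vcan (42.8%) and Thbs1 (27.9%) were again the most variable, F13a1 (10.7%) and Tgm2 (8.95%) lay near the median of 9.65%, and Fn1 was at 17.4%. Normal diet replicate 2 was the lowest of its diet for Fn1, Vcan, Thbs1 and Tgm2 but not for F13a1.

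The genes nearest to each member over the 6 libraries were found by the root-mean-square difference of log2 CPM, each gene centred on its own mean, with no test. This measure reads the diet difference that helped to choose the members. For Vcan the nearest were Chil3, a chitinase-like protein of monocytes and macrophages (0.10 log2 units), Atp6v0d2, a proton pump subunit (0.19), and Spp1, osteopontin (0.36). For Thbs1 they were the cytokine gene Osm (0.13), Fam129b (0.21) and Lonrf3 (0.25). For Fn1 they were Padi4, a peptidyl arginine deiminase (0.20), the protease inhibitor gene Slpi (0.24) and F13a1 itself (0.24). For F13a1 they were the lectin gene Clec4d (0.20), Slpi (0.20) and the lipoxygenase gene Alox15 (0.21). For Tgm2 they were Havcr2, which encodes the receptor TIM-3 (0.08), Dgke, a diacylglycerol kinase (0.08), and Gpd2, the mitochondrial glycerol phosphate dehydrogenase (0.09). Fn1 and F13a1 thus lay 0.24 log2 units apart, while Vcan and Thbs1 lay 0.90 apart and each at least 0.64 from the other members.

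F13a1 and Vcan lie 52.6 Mb apart on chromosome 13, and Thbs1 and Tgm2 40.0 Mb apart on chromosome 2. Promoter windows from RefSeq on GRCm38.p6, which reach from 250 bases before to 50 bases after a transcript start, matched F13a1 and Vcan. They are shown because the other members, Fn1, Thbs1 and Tgm2, had no window in that set. The F13a1 window at the gene start of the deposited table (chr13:37050195-37050494, minus strand) and the Vcan window (chr13:89742463-89742762, minus strand) are given 5′ to 3′ with motif matches in capitals.
F13a1: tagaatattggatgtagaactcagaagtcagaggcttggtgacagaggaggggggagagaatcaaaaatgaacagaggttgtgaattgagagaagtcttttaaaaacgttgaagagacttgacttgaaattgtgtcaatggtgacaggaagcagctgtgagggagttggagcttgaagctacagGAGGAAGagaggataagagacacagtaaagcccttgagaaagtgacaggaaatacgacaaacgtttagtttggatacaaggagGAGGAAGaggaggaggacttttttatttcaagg
Vcan: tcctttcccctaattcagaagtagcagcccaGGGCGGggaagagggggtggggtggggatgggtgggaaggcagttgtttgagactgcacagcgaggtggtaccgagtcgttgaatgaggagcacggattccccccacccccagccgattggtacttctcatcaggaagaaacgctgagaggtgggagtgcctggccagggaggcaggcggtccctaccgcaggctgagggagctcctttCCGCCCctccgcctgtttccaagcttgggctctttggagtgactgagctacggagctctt
The motifs, searched on both strands, were AP-1 (TGACTCA, in 5.2% of 32851 promoter windows), the CRE half-site (TGACGT, 7.51%), the GC box (GGGCGG, 35.7%), the TATA box (TATAAA, 13.6%), the E box (CACGTG, 7.15%) and the CArG box (1.63%). The PU.1 core (GAGGAAG, 13.6%) was added after the sequences had been seen. Vcan held a GC box at -219 and, on the other strand, at -10 from its start. F13a1 held the PU.1 core at -66 and at 18 bases after the start, and a window at a second start site held it once. The other motifs had no match in these windows. The GC content was 42.7% for F13a1 and 61.0% for Vcan.

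Among other genes of the provisional matrix, listed by function, coagulation factor V (F5) alone passed the threshold in edgeR. Of 73 listed genes 59 were tested, of which 1 rose (background 0.446%) and none fell in edgeR. Before adjustment, 15 higher and 6 lower genes had p under 0.05, where 10.2% of all genes tested were higher and 8.4% lower (18.6% in all). DESeq2 called 10 higher and 3 lower, against 4.96% and 3.12% of all genes. Their median log2 fold change was 0.04, against 0.00 over all genes tested. F5, the cofactor of factor Xa in making thrombin, stood at 112, 82.3 and 90.3 CPM in high fat diet replicates 1 to 3 and at 29.4, 23.8 and 27.6 CPM in normal diet replicates 1 to 3, without overlap. Its log2 fold change was 1.82 ± 0.14 (SE; edgeR adjusted p = 0.0231). It was also called in 2 of the 6 fits that left out 1 library besides the one without normal diet replicate 2, and missed the threshold without high fat diet replicate 2 or 3 and without normal diet replicate 1.

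The fibrinogen and coagulation list held 12 tested genes, with a median log2 fold change of 1.34. Besides F5, none passed in edgeR. Before adjustment, p was under 0.05 for 7 higher genes and no lower one (all genes 10.2% and 8.4%), and DESeq2 called 6 higher (all genes 4.96%), which were F5, Fgb, F13b, F2, F7 and F10. Fibrinogen beta chain (Fgb), a precursor of fibrin, was at 66.1 ± 37.2 and 167 ± 59.7 CPM on the normal and high fat diet, and prothrombin (F2) at 25.9 ± 15.2 and 101 ± 34.6 CPM (SD, n = 3). F7 and F10, zymogens upstream of prothrombin, had edgeR log2 fold changes of 1.98 ± 0.33 and 1.48 ± 0.26 (SE; adjusted p = 0.0613 and 0.0676).

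Normal diet replicate 1, the library with the least hepatocyte RNA, did not stand in the same place for all of these genes. F2 was at 8.27, 34.1 and 35.2 CPM in normal diet replicates 1 to 3, and F13b, the carrier subunit of factor XIII in plasma, at 0.858, 3.21 and 4.43 CPM. F7 was at 3.99, 4.21 and 8.51 CPM and F10 at 27.6, 18.8 and 34.7 CPM in the same libraries. The fibrinogen chains Fga, Fgb and Fgg were at 27.8, 23.2 and 18.5 CPM in normal diet replicate 1. In normal diet replicate 2 they were at 106, 85.6 and 76.6 CPM, and in replicate 3 at 91.3, 89.5 and 85.1 CPM. Replicate 1 was thus far below the others for F2, F13b, Fga, Fgb and Fgg. It was next to replicate 2 for F7, between the others for F10 and, at 29.4 CPM, the highest for F5. Replicate 1 is a single library, and these genes other than F5 were named after their values were seen. The part of hepatocyte RNA in these values was not tested.

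Receptors for these matrix proteins held no call among 11 genes in edgeR (before adjustment, p was under 0.05 for 1 higher and 1 lower gene, where all genes gave 10.2% and 8.4%; DESeq2 called none). Lrp1, an endocytic receptor that takes up thrombospondin 1, stood at 2420 ± 609 CPM (normal diet) and 3201 ± 119 CPM (high fat diet), and Cd44, the hyaluronan receptor, at 986 ± 112 and 787 ± 89.6 CPM (SD, n = 3). The subunits of the fibronectin receptor, Itga5 and Itgb1, had log2 fold changes of 0.29 ± 0.21 and -0.03 ± 0.09 (SE).

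Of 9 genes of plasminogen activation, none passed in edgeR (before adjustment, p was under 0.05 for 3 higher and 2 lower genes, with 10.2% and 8.4% of all genes; DESeq2 called 2 higher, with 4.96% of all genes). Anxa2, a cell surface binder of plasminogen, was at 106 ± 34.2 and 183 ± 36.4 CPM and Plg, plasminogen, at 36.7 ± 21.4 and 119 ± 42.1 CPM on the normal and high fat diet (SD, n = 3). Of 12 tested genes of the versican and hyaluronan matrix, none passed in edgeR (before adjustment, p was under 0.05 for 2 lower genes and no higher one, with 8.4% and 10.2% of all genes; DESeq2 called 2 lower, with 3.12% of all genes), with a median log2 fold change of -0.44 where Vcan itself had 2.90. Stab2, the hyaluronan clearance receptor of sinusoidal endothelium, was at 674 ± 248 and 473 ± 41.8 CPM and the small proteoglycan Bgn at 90.2 ± 37.9 and 50.7 ± 10.4 CPM. Of 14 matricellular and adhesion genes, none passed in edgeR (before adjustment, p was under 0.05 for 4 higher and 1 lower gene, with 10.2% and 8.4% of all genes; DESeq2 called 2 higher and 1 lower, with 4.96% and 3.12% of all genes). Tgfbi and Emilin2, the 2 most abundant, had log2 fold changes of 0.16 ± 0.15 and 0.18 ± 0.13 (SE).

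**Figure D4:**
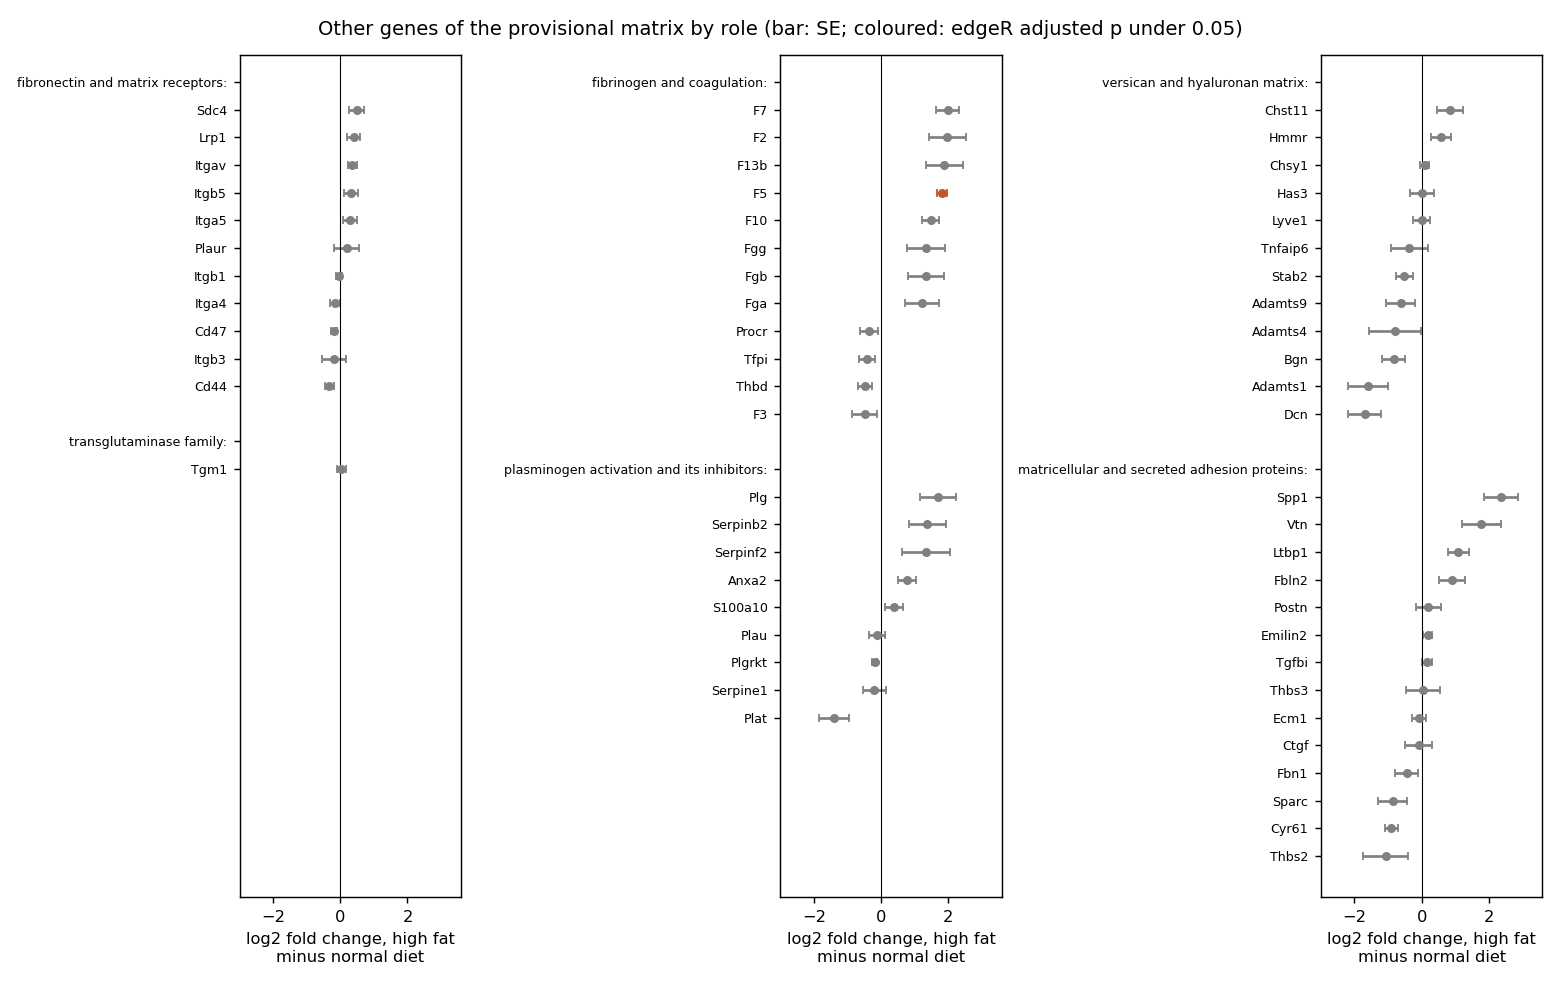
Log2 fold change (horizontal axes, high fat diet minus normal diet; bars are SE) of the 59 other provisional matrix genes tested, listed by role and sorted within it. F5 is the only coloured point, for an edgeR adjusted p under 0.05; the fibrinogen chains and F2 lie to the right of 0 with wide SE.

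Transcripts of other cells moved with the diet and are given here beside the members. The 11 hepatocyte markers tested of 12 summed to between 4914 and 8289 CPM in the high fat diet libraries and between 537 and 2616 CPM in the normal diet libraries, without overlap. High fat diet replicate 1 held the most hepatocyte RNA and had the lowest Fn1, F13a1, Thbs1 and Tgm2 of its diet. Normal diet replicate 1 held the least and had the highest level of each of the 5 genes in its diet. With the mean log2 CPM of these markers as a covariate in edgeR, the log2 fold changes were 2.31 ± 0.22 for Fn1, 1.97 ± 0.18 for F13a1, 3.68 ± 0.87 for Vcan, 1.85 ± 0.74 for Thbs1 and -0.43 ± 0.26 for Tgm2 (SE). None was called (adjusted p between 0.115 and 0.811; 0 of all genes called, 988 at an unadjusted p under 0.05). Diet and marker level do not overlap between the groups, so the fit cannot fully separate them.

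**Figure D5:**
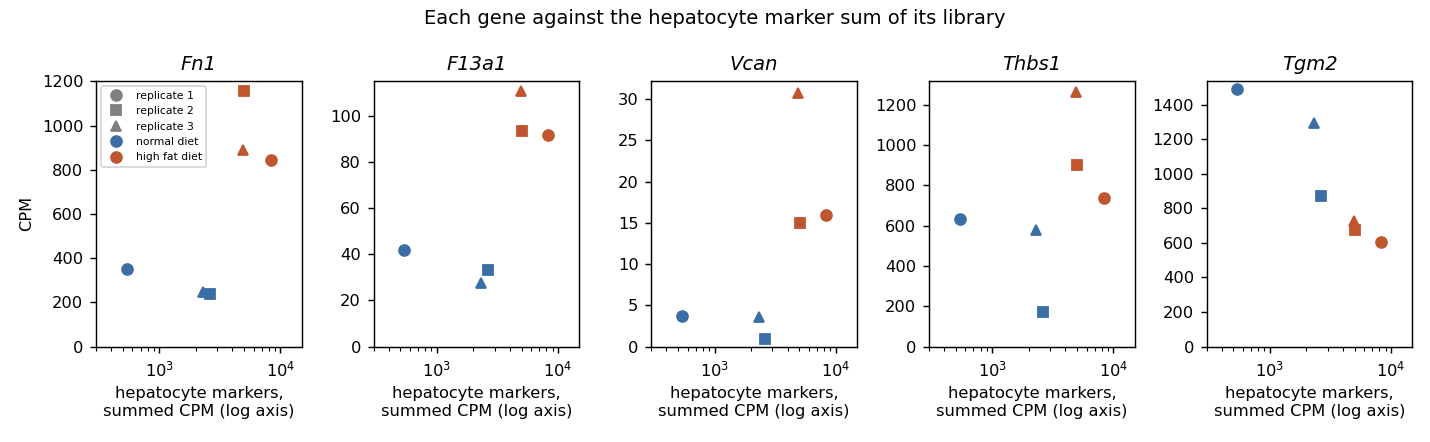
CPM of each of the 5 genes (vertical axes, from 0) against the summed CPM of 11 hepatocyte markers in the same library (horizontal log axis), with 3 libraries per diet. Fn1 and the hepatocyte markers were both higher on the high fat diet. The high fat diet library with the most hepatocyte RNA (8289 CPM) had the least Fn1 of its diet (845 CPM). The normal diet library with the least hepatocyte RNA (537 CPM) had the most Fn1 of its diet (352 CPM). That library was also the highest of its diet for the other members, Tgm2 included. Each of these is a single library, and the part of hepatocyte RNA was not tested.

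Neutrophil markers (9 of 10 tested) summed to 289 to 330 CPM in high fat diet libraries and 193 to 203 in normal diet libraries. S100a8, S100a9 and Mmp8 were called higher in edgeR, where 0.446% of all genes were. Most of this sum was Csf3r, with means of 202 and 171 CPM in the same order and a log2 fold change of 0.24. The median log2 fold change of the 9 was 2.52, and each was higher without overlap, as were 14.5% of all genes tested. Peritoneal macrophage markers summed to 165 to 246 and 95.8 to 131 CPM in that order (5 of 5, Alox15 called higher, against 0.446% of all genes). Monocyte markers summed to 452 to 674 and 238 to 520 CPM (8 of 8), with normal diet replicate 2 the lowest, as it was for Vcan and Thbs1. The monocyte sum there was 238 CPM, against 443 and 520 CPM in normal diet replicates 1 and 3. Dendritic cell markers stood at 144 against 249 and 285 CPM, so a low sum was not particular to monocytes. Sinusoidal endothelial and mesothelial sums were also lowest there. So were the neutrophil, peritoneal macrophage, platelet and stellate cell sums, but each was close to another normal diet library (192.9 and 193.5, 95.8 and 96.6, 12.4 and 12.8, 100.6 and 104.2 CPM). Kupffer cell and macrophage sums were the highest of the diet in replicate 2. The hepatocyte sum was too (2616 CPM, 2313 in replicate 3), but not the mean log2 CPM of these markers (6.73, 6.75 in replicate 3). Chil3, the nearest gene to Vcan, is on the monocyte list. There 6 log2 fold changes were positive, among them Ccr2 at 1.16 ± 0.32 and Chil3 at 2.83 ± 0.53 (SE). The other 2 were negative (Plac8 -0.73, Ifitm6 -0.30), and no monocyte marker was called in edgeR. Platelet and megakaryocyte markers, of which 3 of 11 were tested, summed to 16.9 to 19.99 and 12.4 to 18.3 CPM. Lower sums on the high fat diet were seen for stellate cell and fibroblast markers (14 of 14), at 84.6 to 99.997 against 100.6 to 226 CPM. The same held for sinusoidal endothelial markers (10 of 10), at 1707 to 2102 against 2334 to 4596 CPM. Conventional dendritic cell markers (6 of 6) were also lower, at 126 to 139 against 144 to 285 CPM. Of these 6, Itgae was called lower in edgeR, where 0.188% of all genes were. Mesothelial markers, of which 1 of 5 was tested, stood at 0.226 to 0.716 and 0.737 to 1.79 CPM. Kupffer cell markers summed to 14294 to 17835 CPM on the high fat diet and 13303 to 21355 CPM on the normal diet (6 of 6), and markers common to macrophages to 9749 to 11270 and 8886 to 13188 CPM (6 of 6), both with overlap. No tested marker was at 0 in any library, and the remaining markers were not analysed here. The part of these cells in the differences of the 5 genes was not tested.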

How the data were processed

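The authors deposited 1 table with 4 kinds of values per gene. All tests ran on the deposited whole-number counts. The deposited FPKM served for levels per length, and the deposited normalised signal (counts over 1 size factor per library) entered no test. The authors' deposited log2 fold change and p-values are their own comparison. The submitters' processing notes name mm10 and, without saying what each was used for, STAR, HISAT2, StringTie, featureCounts, DESeq, edgeR and STAR-Fusion. For these tools the sources used here give no version, setting or handling of strand. Tgm2 overlaps Rprd1b on the other strand, which had 705 to 996 counts per library, against at least 11953 for Tgm2.

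Diets were compared with edgeR 4.0.16 in R 4.3.3 (TMM, default low-count filter, robust quasi-likelihood test, Benjamini-Hochberg adjustment over 14361 genes, threshold 0.05), which was tested on simulated data. The SE is the log2 fold change over the square root of F. DESeq2 1.42.0, limma 3.58.1 (voom), other scalings and filters, a hepatocyte covariate and each library left out were alternatives. Replicates are numbered in accession order, and the design text counts mice. Libraries of 1 diet all differed by more than counting noise (chi-square over its degrees of freedom 14.2 to 75.2). Symbols of other genes came from GENCODE M21, which matched 14842 genes.

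The members and lists were chosen with earlier results of these data known. Genes named are the members, called list genes or else the 2 most abundant of a list, and the 3 nearest genes with a mean of at least 5 CPM and no predicted symbol. Genes outside this rule (F2, F7, F10, Fga, Fgb, Fgg, F13b, Itga5, Itgb1, Ifitm6) were named after their values were seen. Not every gene within the rule is named. Intervals cover counting error only.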

Additional observations from a re-analysis of the deposited data

How the results depend on the processing

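All 5 genes kept the sign of their diet difference under all 15 alternatives. The calls did not hold as well, and the causes of this were not tested. Some of the fits had fewer libraries. Against 91 genes called, 2 members (Fn1 and F13a1) and 1 other provisional matrix gene, DESeq2 called 1206, 4 and 13, and the hepatocyte covariate left 0, 0 and 0 (988 genes had p under 0.05 before adjustment). Leaving out the libraries numbered 1 of both diets gave 0, 0 and 0 (1384 genes before adjustment). With 1 library left out they ranged from 0 to 1385, from 0 to 4 and from 0 to 10, the highest without normal diet replicate 2.

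Fn1 went from 1.79 to 2.31 with the covariate and 2.07 without both libraries numbered 1, and F13a1 from 1.54 to 1.97 and 1.74 (log2), with adjusted p between 0.0542 and 0.115 in edgeR. With 1 library left out, Fn1 ranged from 1.64 to 1.98 and F13a1 from 1.40 to 1.695. Without both libraries numbered 1, Vcan was at 3.33 and Tgm2 at -0.64, not called. Vcan (2.90) and Tgm2 (-0.87) passed in DESeq2, and Vcan (2.48) and Tgm2 (-1.07) passed without normal diet replicate 2. With 1 library left out, Vcan ranged from 2.48 to 3.18, Thbs1 from 0.66 to 1.36 and Tgm2 from -1.07 to -0.70. Scaling and filtering alternatives in edgeR called Fn1, F13a1 and F5 each time, as limma voom did. Vcan was at 2.48 without normal diet replicate 2, 2.496 without high fat diet replicate 3 and 3.68 with the covariate, and its lowest library held 17 reads. No paired analysis was run, because the labels give no pairing between the mice of the 2 diets.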
